A study of Mus musculus with 3 samples.

Results

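Cycling Il2ra+ Ptcra-negative thymocytes are dividing cells of the mouse CD4- CD8- (double-negative, DN) compartment. They carry transcripts of the IL-2 receptor alpha chain CD25 (Il2ra) and no detected transcript of the pre-T cell receptor alpha chain (Ptcra). They were taken as cells with 500 to 5000 detected genes, at most 7% mitochondrial counts, at least 1 Il2ra molecule (UMI, unique molecular identifier), at least 3 UMIs of Mki67 and Top2a together, and no UMI of Ptcra, Cd8a, Cd8b1, Cd34 or Trac. The rule found 1774 members among 21879 cells within the gene and mitochondrial limits, of 23283 deposited. The members were thus chosen by their UMIs of these 8 genes, whose levels are given as descriptions without a test.

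The cells came from 3 single-cell RNA-seq libraries (10x Genomics), each a different sort of thymocytes from C57BL/6 mice labelled week 6, with 4 thymi pooled per sample after magnetic depletion of CD4+ and CD8+ cells. The sorting gate left out cells stained for B220, NK1.1, CD11b, CD11c, TCRβ, CD4 or CD8. No genotype other than wild-type C57BL/6 and no treatment was given. Run 1 held total DN and TCR gamma-delta (γδ) thymocytes, run 2 held DN1 and DN2 cells, and run 3 held DN1, DN2, DN3 and γδ cells sorted apart and then mixed. Each sort was sequenced in 1 library, so sort, library and processing run cannot be told apart, and comparisons were made between cells of the same run.

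DN thymocytes pass from DN1, which includes the early thymic progenitors, through DN2, where CD25 appears and cells divide under Kit and IL-7 receptor signals, to DN3, where Rag proteins rearrange the T cell receptor beta gene and Ptcra is used to test the product. Progenitor factors such as Lyl1, Hhex and Spi1 are switched off on the way while Notch target genes, CD3 chains and commitment factors such as Bcl11b are switched on. A cell that enters division first transcribes replication genes, then replication-dependent histones, and then the kinases, cyclins and spindle proteins of mitosis.

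The members numbered 258 in run 1, 725 in run 2 and 791 in run 3. These were 4.68% (95% Clopper-Pearson interval 4.14 to 5.27), 8.19% (7.63 to 8.78) and 10.5% (9.85 to 11.2) of the cells of each run, and the intervals of the 3 runs did not overlap. Among Il2ra+ cells the shares were 10.2%, 16.8% and 18.8%. The intervals cover counting error only, and the shares moved with the sort and with depth: the whole libraries held 39947415, 52797915 and 98533329 UMIs, and the members' median was 7463.5 UMIs per cell in run 1, 10038 in run 2 and 17253 in run 3. With every cell thinned to 2000 UMIs before the rule was applied, 55 of 5516, 102 of 8852 and 240 of 7463 cells met it. At that equal depth the shares of runs 1 and 2 were close to each other, and run 3 had the largest share. The intervals that did not overlap were those at unequal depth. Runs 1 and 2 shared 72 cell barcodes, of which 1 was a member in both, runs 1 and 3 shared 3, and runs 2 and 3 shared none.

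Members just inside the cycling threshold, with exactly 3 Mki67 and Top2a UMIs, numbered 31, 98 and 77, and 60, 125 and 155 cells with 2 UMIs fell just outside it. The median of the summed Mki67 and Top2a UMIs was 7 in runs 1 and 2 and 17 in run 3. A single Il2ra UMI placed 46.9% of the members of run 1, 29.7% of run 2 and 13.3% of run 3 above the Il2ra threshold. Over all members Il2ra stood at 252, 259 and 328 counts-per-million (CPM, the UMIs of a gene scaled to a fixed total), Mki67 at 223, 157 and 596 CPM, and Top2a at 720, 613 and 930 CPM. A doublet caller (Scrublet) marked 32, 53 and 67 of the members, and they were kept in the values below.

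The name DN2-like was checked against Cpa3, a mast cell protease gene whose RNA marks DN2 thymocytes, Kit and Cd44. After thinning to 2000 UMIs, a Cpa3 UMI was found in 22.1% of members in run 1, 42.5% in run 2 and 37.3% in run 3 (43.0%, 77.8% and 75% unthinned). The same share was 2.33%, 13.2% and 9.60% in the cycling Il2ra+ cells that carried Ptcra, and 1.02% in the 197 B cells of run 3. In cells with 3 or more UMIs of the cytotoxic granule gene Nkg7 and no Il2ra it was 26.3%, 12.2% and 8.16%, at a median depth of 4483.5, 2914 and 6497 UMIs. Those cells are not a clean reference for background, since Nkg7 itself stood at 181, 288 and 248 CPM in the members. Cpa3 thus lay above both comparison sets in runs 2 and 3, while in run 1 it was no higher than in the Nkg7+ cells and was absent from 57.0% of members even unthinned. Kit UMIs were found in 1.16%, 4.0% and 6.71% of thinned members against 1.92%, 1.79% and 3.12% of the Nkg7+ cells, and Cd44 in 1.16%, 1.79% and 2.53% against 1.92%, 16.6% and 14.5%. In the cycling Ptcra+ cells Cd44 was found in 1.40%, 1.34% and 0.468%. The cells are therefore named here by their rule.

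Summed over all their cells, the members held more Cpa3, Lyl1 and Hhex than the cycling Ptcra+ cells of their run and less Rag1 and Cd3d. Cpa3 (chr3:20215620-20242181, minus strand, GRCm38) was at 149 CPM (exact Poisson 95% interval 133 to 167) in run 1, 337 (324 to 351) in run 2 and 265 (256 to 274) in run 3, against 23.6 (17.5 to 31.1), 76.0 (67.7 to 84.9) and 62.3 (56.8 to 68.1) CPM in the cycling Ptcra+ cells. Resting cells with Il2ra and no Ptcra held 198, 494 and 269 CPM, above the members in runs 1 and 2 and at a like level in run 3. Bcl11b, which fixes T lineage commitment, was at 415, 351 and 558 CPM in members. Cd3g was at 1561, 2012 and 1430 CPM, while the recombinase gene Rag1 (chr2:101638282-101649501, minus strand) was at 16.2, 8.5 and 17.5 CPM. The mast cell and basophil genes Fcer1a and Ms4a2 had no UMI in members of any run, which allows up to 3 UMIs in each summed library, and Flt3 had 0, 0 and 1. Leaving out mitochondrial and ribosomal protein genes, Malat1, Ptma and Crip1 were the most abundant transcripts, with means over the runs of 9552, 9105 and 6111 CPM, followed by Ppia, Eef1a1, Actb and the chromatin genes Hmgb1, H2afz and Hmgb2.

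**Figure D1:**
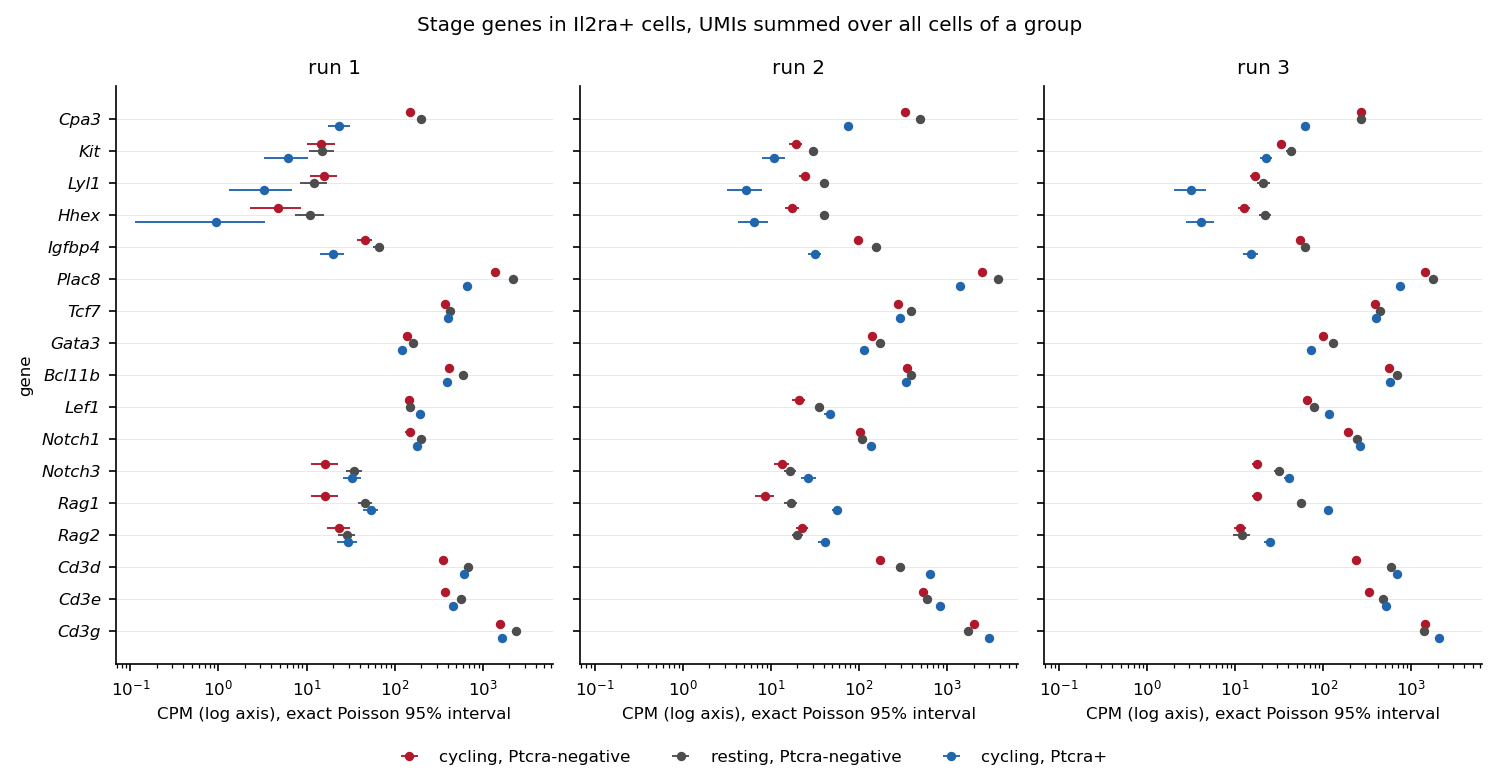
Level of each stage gene in CPM (log axis) in cycling Ptcra-negative members, resting Ptcra-negative cells and cycling Ptcra+ cells, summed over all cells of a group in each run, with exact Poisson 95% intervals that cover counting error only. Cpa3, Lyl1 and Hhex lie to the right of the cycling Ptcra+ cells in every run, and Rag1 and Cd3d lie to their left.

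The members were next compared with resting cells of the same run, which had Il2ra, no Ptcra and no Mki67 or Top2a UMI (681, 1556 and 776 cells). Resting cells were shallower, with medians of 3393, 5360.5 and 8323 UMIs, so members and resting cells were paired 1 to 1 on depth, which left 129, 357 and 245 pairs with medians of 5881 against 5957, 8551 against 8383 and 12640 against 12104 UMIs. UMIs were summed over the paired cells of a run and fitted with edgeR's quasi-likelihood test across 9592 genes, with the run as a block. The 3 runs were the replicates, and they were different sorts. Of the genes tested, 628 (6.55%) were higher and 514 (5.36%) lower in members at a Benjamini-Hochberg adjusted p under 0.05, 11.9% in either direction, and the median log2 fold change was -0.04. Since Mki67 and Top2a chose both groups, genes that follow the cell cycle were bound to differ, and replication, mitosis and histone genes are given without a test.

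Of the 3 cell cycle lists, mitosis had the highest median difference. Of 97 mitosis and spindle genes, 96 lay above 0, with a median log2 fold change of 2.97. Cdk1, the kinase that starts mitosis, was at 262 against 45 CPM in run 1, 260 against 22.8 in run 2 and 75.2 against 3.97 in run 3 in members and paired resting cells. Its partner Ccnb2 was at 306 against 154, 342 against 42.4 and 149 against 5.62 CPM. Cdc20, which activates the complex that ends metaphase, was at 244 against 101, 274 against 26.7 and 84.5 against 10.3 CPM. All 3 genes were higher in members of each run, and their level in resting cells was highest in run 1 and lowest in run 3. The promoters of these genes are shown because each holds both of the letter runs found most often, of those searched, in promoters of mitosis genes, the CHR element TTTGAA and the NF-Y box CCAAT, in a window of 250 bases before the RefSeq start. Capitals mark the CHR element, the NF-Y box on either strand (reading ATTGG on the other) and an E2F motif, and bases that an annotated exon covers were left off the 3′ end.
Cdk1: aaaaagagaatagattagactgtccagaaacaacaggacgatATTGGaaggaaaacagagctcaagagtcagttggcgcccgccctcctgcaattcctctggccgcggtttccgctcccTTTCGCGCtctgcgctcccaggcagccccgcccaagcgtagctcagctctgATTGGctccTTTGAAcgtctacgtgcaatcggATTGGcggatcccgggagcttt
Ccnb2: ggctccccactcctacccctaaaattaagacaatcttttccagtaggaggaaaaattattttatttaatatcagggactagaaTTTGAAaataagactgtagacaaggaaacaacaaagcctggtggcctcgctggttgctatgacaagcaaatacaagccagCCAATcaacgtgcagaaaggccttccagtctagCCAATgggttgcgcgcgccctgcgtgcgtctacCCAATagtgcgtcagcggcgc
Cdc20: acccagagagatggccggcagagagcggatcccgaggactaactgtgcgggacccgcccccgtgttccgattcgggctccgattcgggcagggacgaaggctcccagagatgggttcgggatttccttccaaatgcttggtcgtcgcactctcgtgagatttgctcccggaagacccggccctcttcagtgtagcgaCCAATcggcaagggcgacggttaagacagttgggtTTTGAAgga
They lie at chr10:69352939-69353162, chr9:70421555-70421804 and chr4:118437353-118437593, all read from the minus strand of GRCm38.p6. TTTGAA begins 71 bases before the start of Cdk1, 167 before Ccnb2 and 18 before Cdc20. Cdk1 has ATTGG at 208, 80 and 48 bases, Ccnb2 has CCAAT at 87, 54 and 21, and Cdc20 has CCAAT at 53. Of the 97 mitosis genes, 80 had a RefSeq promoter. On either strand TTTGAA was found in 32.5% of them against 18.3% of all 27019 genes, CCAAT in 72.5% against 37.5%, both in 28.8% against 6.45%, and any of the E2F motifs TTTCCCGC, TTTGGCGC and TTTCGCGC in 7.5% against 1.78%. The E box CACGTG was found in 11.3% against 6.86%. These are matches of letters and not measured binding.

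Replication genes differed less than mitosis genes. Of 61 such genes, 59 lay above 0, with a median of 0.83. The helicase subunit Mcm6 was at 436 against 402, 377 against 392 and 348 against 225 CPM, so that in run 2 its order was turned. Rrm2, the small subunit of ribonucleotide reductase, was at 631 against 189, 522 against 104 and 123 against 7.60 CPM. The list thus ranged from genes at a like level in both groups to genes that were several times higher in every run. Of 13 replication-dependent histone genes, 12 lay above 0, with a median of 1.95. Hist1h2ap, an H2A gene, was at 1040 against 116, 1768 against 188 and 1773 against 304 CPM.

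Outside these lists, genes with at least 50 CPM in the higher group were ranked by positive differences that held in every run. The 10 largest were again genes of the cycle, and they are given as descriptions. Mxd3, a Max-binding repressor made in S phase, was at 129 against 2.50 CPM in run 1, 103 against 2.89 in run 2 and 33.4 against 2.97 in run 3, a log2 fold change of 4.62 (SE 0.27). The base excision glycosylase Neil3 (log2 fold change 4.05), the kinetochore protein Ska1 (3.92), the midbody protein Shcbp1 (3.45) and Fbxo5, which inhibits the anaphase-promoting complex (3.42), followed. Pclaf, a PCNA-binding factor, was the most abundant, at 1629 against 324, 1472 against 169 and 608 against 24.8 CPM. Hist1h2an (3.32), the importin Kpna2 (3.21) and Cdca5, which holds sister chromatids together (2.99), were also among them. In resting cells Mxd3 rested on 2 UMIs in run 1, Neil3 on 3 and Ska1 on 2 in run 3, and Hist1h2an on 1 in run 1, so the size of those folds is loosely bounded.

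**Figure D2:**
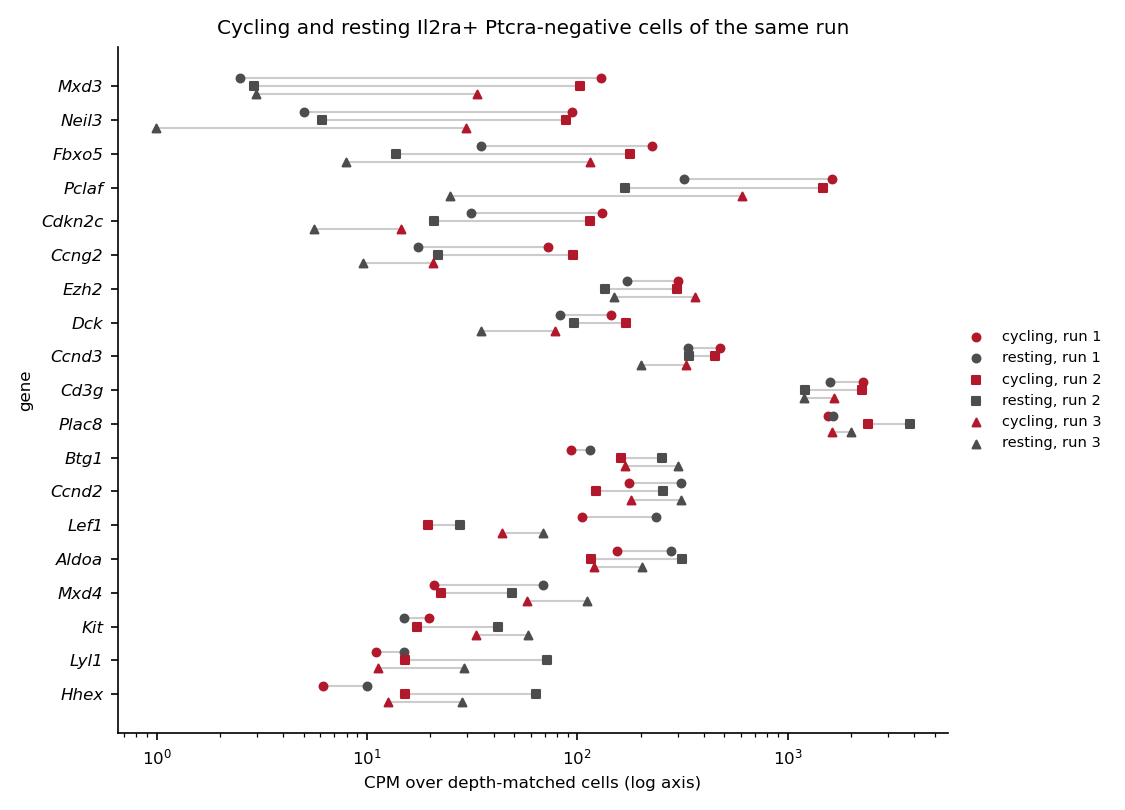
CPM (log axis) of 19 genes in depth-matched cycling members (red) and resting cells (grey) of the same run, with the marker shape giving the run and a line joining each pair. Mxd3, Neil3, Fbxo5 and Pclaf are higher in the members of all runs, Mxd4, Ccnd2 and Aldoa are lower in all, and Kit points the other way in run 1.

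Members carried transcripts of both early and late phases of the cycle. The rule asked for at least 3 Mki67 and Top2a UMIs, so it limited in advance which phases members could hold. The replication list made up a median of 9709, 8921 and 9167 CPM per member in the 3 runs, and the mitosis list 40504, 47513 and 24471 CPM. Across the 258 members of run 1 and the 725 of run 2, cells rich in replication transcripts were poor in mitosis transcripts (Spearman rho -0.51 and -0.58), whereas across the 791 of run 3 the lists were unrelated (rho -0.01). These correlations are across cells of 1 library, share its depth and are given without a test. By 3 early genes (Cdc6, Ccne1 and Ccne2) and 3 late genes (Ccnb1, Cdc20 and Plk1), 15.1%, 14.9% and 23.8% of members carried only early transcripts, 37.6%, 44.3% and 23.0% only late ones, 40.3%, 37.9% and 43.4% both, and 6.98%, 2.90% and 9.86% neither. Cells with neither had the lowest depth of these classes in each run, with medians of 5482.5, 7395 and 13242.5 UMIs. A single UMI placed a cell in a class. Unthinned, the shallower resting cells also held Cdc20 UMIs in 10.4%, 10.7% and 7.86% of cells and Cdc6 UMIs in 9.40%, 8.93% and 6.19%. The classes may thus include some background.

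Histone transcripts set run 3 apart. Per member, the 13 histone genes had a median of 1422 CPM in run 1, 2179 in run 2 and 3133 in run 3, with an upper quartile of 17720 CPM in run 3. At a threshold of 10000 CPM, chosen after the values were seen, 341 members of run 3 (43.1%) and none of run 1 or 2 passed. Those 341 cells had a median of 39209 CPM of mitosis transcripts and 10298 CPM of replication transcripts, against 17052 and 8488 CPM in the other 450, and 19054 against 15748.5 UMIs. The linker histone gene Hist1h1b stood at 78.1, 34.9 and 1508 CPM in members of runs 1, 2 and 3, and at 78.3, 37.2 and 1598 CPM in the cycling Ptcra+ cells. For this gene the runs differed as much outside the members, and sort, library and reference annotation, which differed for run 3, cannot be told apart. The paper also names different capture kit versions and sequencers without saying which library used which, so these cannot be told apart either.

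**Figure D3:**
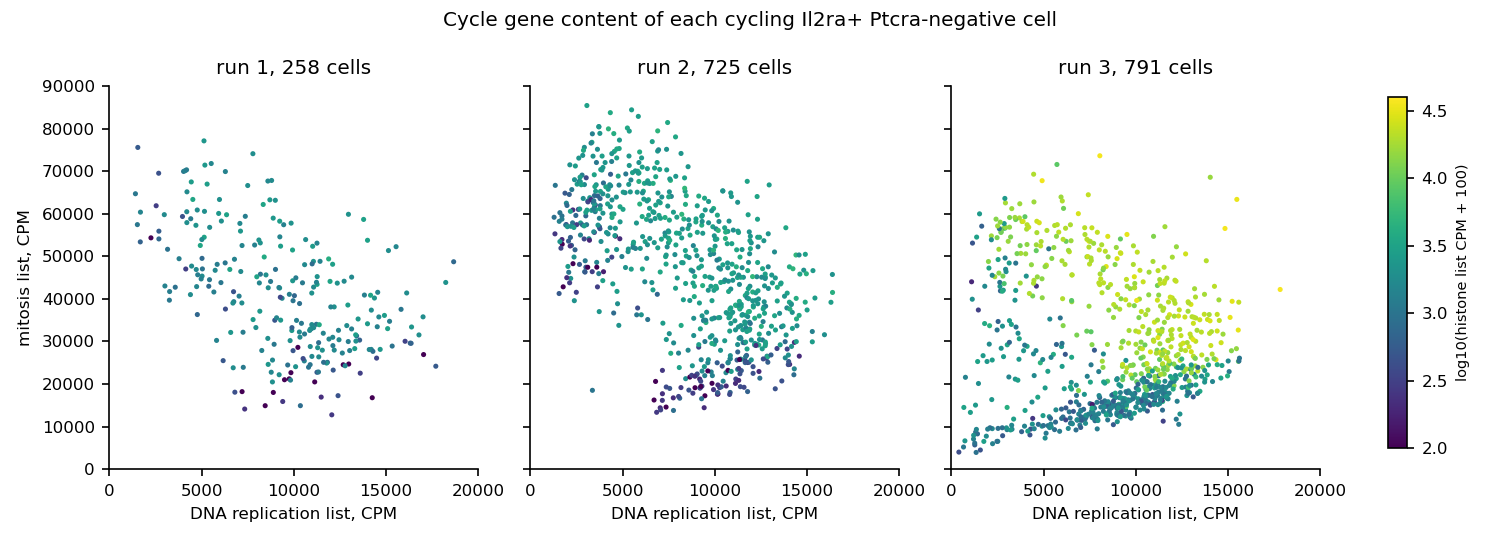
Each point is 1 cycling Il2ra+ Ptcra-negative cell, placed by its summed replication CPM (x) and mitosis CPM (y) and coloured by log10 of its histone CPM plus 100. Runs 1 and 2 fall from upper left to lower right, and in run 3 the histone-rich cells (341 at or above 10000 histone CPM) have a median of 39209 mitosis CPM against 17052 in the rest.

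Regulators of G1 and inhibitors of the cycle also follow the state that chose the groups, so their values are descriptions too. Among 7 cyclins and kinases of G1 that passed the filter on low counts, of 8 listed, Ccnd3 and Cdk2 were on the higher side and Ccnd2 on the lower side in members of all 3 runs. Ccnd2 was at 177 against 312, 123 against 256 and 180 against 310 CPM in members and resting cells (log2 fold change -0.93, SE 0.11). Ccnd3, the D cyclin that thymocytes need to expand, was at 477 against 335, 453 against 340 and 329 against 200 CPM (0.51, SE 0.11). The D cyclins thus pointed in opposite directions in each run. Cdk2 stood at 0.54.

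Of 21 listed inhibitors of the cycle and quiescence genes, 18 passed that filter, of which 7 lay above 0 and 11 below, and the list's median was -0.16. Cdkn2c, the CDK4 and CDK6 inhibitor p18, was at 130 against 31.2, 115 against 20.9 and 14.5 against 5.62 CPM (log2 fold change 2.11, SE 0.19). Cdkn2d, its relative p19, stood at 1.23, the cyclin G2 gene Ccng2 at 1.80, the pocket protein gene Rbl1 at 0.84 and the p21 gene Cdkn1a at 0.72. The antiproliferative genes Btg1 and Btg2 stood at -0.70 and -0.51. With the resting cells also freed of Cd8a, Cd8b1, Cd34 and Trac UMIs, as the members were, they stood at -0.34 and -0.25.

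Mxd4, a Max-binding repressor linked to resting and differentiated cells, was at 20.9 against 68.7, 22.4 against 48.8 and 57.9 against 112 CPM (log2 fold change -1.16, SE 0.15), the reverse of Mxd3. Each gene kept its order in all 3 runs, and across runs the groups overlapped for Mxd4 but not for Mxd3. The rest of the 24 Myc and growth genes changed little. Besides Mxd3, none was higher, and 3, Mxd4, the nucleolar gene Npm1 (-0.35) and Srm, were lower. Npm1 turned to 0.28 without depth matching.

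Chromatin and nucleotide genes were higher in part. Of 19 DNA methylation and Polycomb genes, 2 (among them Dnmt1) are replication genes and were left untested here, and of the others 3 were higher and 2, Jarid2 and Kdm6b, lower. The Polycomb methyltransferase Ezh2 was at 301 against 172, 297 against 135 and 362 against 150 CPM (log2 fold change 1.05, SE 0.12), and its partners Suz12 (0.71) and Eed (0.60) were higher too. Of 27 nucleotide and one-carbon genes, 6 are replication genes without a test, and of the others 3 were higher and none lower. These 3 were Dck, the salvage kinase for deoxycytidine (0.88), and the mitochondrial folate genes Mthfd1l (0.74) and Mthfd2 (0.60). Mthfd2 was not higher in run 1, where it was at 102 against 106 CPM, and was at 83.4 against 48.8 and 52.1 against 24.5 CPM in runs 2 and 3.

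No energy or ribosome gene was higher. Among 22 cytochrome oxidase and ATP synthase genes and 18 cholesterol synthesis genes, none passed edgeR's test in either direction, with list medians of 0.02 and -0.03. Of 16 glycolytic genes, 2 were lower, Aldoa at 155 against 280, 116 against 315 and 121 against 202 CPM (log2 fold change -1.07, SE 0.14) and Pfkl (-0.51). Ribosomal protein genes made up 256055 against 300188, 261455 against 319085 and 286943 against 323118 CPM, and 56 of 81 were lower with a median of -0.28 and none higher. That count depended on the fit: 6 were lower in DESeq2, 6 without run 1, 4 without run 2, and 2 without depth matching, when 1 was higher. The median over all genes tested was -0.04. CPM is a share of a fixed total, so a rise of some genes lowers the CPM of the rest. The part of this in the lower ribosomal protein genes was not tested.

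Of 11 tested progenitor genes, 7 were lower and none higher in the cycling cells than in resting cells at the same depth, with a median of -0.91 against -0.04 for all genes. DESeq2 called 4 of the 11 lower. Cd34 UMIs were barred from the members and not from the resting cells, and 5 of 11 were lower when both met the same exclusions. Summed over the listed progenitor genes, paired members and resting cells held 185 against 166 CPM in run 1, 213 against 517 in run 2 and 423 against 798 in run 3, and natural killer and myeloid markers moved in the same direction in each run. Their part in the result was not tested. Lyl1, a progenitor transcription factor, was at 11.1 against 15.0 CPM in run 1, 15.2 against 71.7 in run 2 and 11.3 against 29.1 in run 3 (log2 fold change -1.79, SE 0.24, edgeR adjusted p = 8.1e-05). Hhex (-1.67), Spi1, the PU.1 gene (-1.59), and Mef2c (-0.93) were lower, as were the receptor genes Kit (-0.91), Il7r (-0.83) and Cd44 (-1.38). The differences were carried by runs 2 and 3. In run 1 Kit was at 19.7 against 15.0 CPM, Il7r at 55.4 against 51.2 and Cd44 at 4.92 against 2.50, all with members on the higher side. Without run 2, 3 of the 11 genes were lower. Without matching Lyl1 stood at -0.31 and Kit at -0.35, and thinned in place of matching Lyl1 stood at -0.47 and Kit at -0.04, none of which passed the test.

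Genes of the DN2 and mast cell-type list were 6 lower and none higher of 8 tested, with a median of -0.79. DESeq2 called 2 of the 8 lower, and 4 were lower without run 2. The list summed to 1966 CPM in paired members against 1928 in resting cells in run 1, 3014 against 4936 in run 2 and 2272 against 3084 in run 3. The members that were lower were not mainly DN2 markers: Tyrobp (-3.48), Cd7 (-2.58) and Fcer1g (-2.08) are signalling or surface genes that natural killer or myeloid cells also use, while Ly6a (-0.87), Igfbp4 (-0.72) and Plac8 (-0.39) changed less. Cpa3 itself was at 220 against 124 CPM in run 1, 342 against 464 in run 2 and 300 against 321 in run 3. It did not pass the test (-0.05, SE 0.17, edgeR adjusted p = 0.91), the runs pointed in different directions, and the sign changed with the setting.

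Later stage genes changed in few places. Of 20 tested DN2b to DN3 genes, 2 were higher and 2 lower. Cd3g was at 2295 against 1593, 2251 against 1211 and 1664 against 1199 CPM (log2 fold change 0.59, SE 0.09), and Dntt, which adds bases at receptor gene joints, was higher by 0.39. Without depth matching the same genes stood at -0.02 and -0.09. Zap70, the receptor kinase, was lower (-1.37). Of 19 commitment factors, Cbfb was higher (0.48), Lef1 was at 106 against 237, 19.6 against 27.6 and 44.0 against 68.7 CPM and lower (-0.82, SE 0.15), and Ikzf3 was lower (-2.56). Bcl11b (0.16, edgeR adjusted p = 0.36) and Tcf7 (-0.29, edgeR adjusted p = 0.15) did not pass the test. Of 9 Notch pathway genes, 1 was lower. Of 14 genes of beta-selection, the checkpoint after Ptcra is used, 8 were lower, among them Cd2 (-1.69) and Cd28 (-0.72), and 2 of 14 were lower with resting cells that met the members' exclusions.

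Over all cells, natural killer, myeloid and regulatory T cell markers summed to more in the resting cells than in the members of each run, while erythroid markers in run 1 summed to more in the members. In the depth-paired cells that were tested, natural killer markers summed to 253 CPM in members against 249 in resting cells in run 1, 377 against 799 in run 2 and 334 against 765 in run 3. Myeloid markers summed to 213 against 187, 323 against 522 and 413 against 665 CPM, and B cell markers to 251 against 380, 236 against 299 and 462 against 355 CPM. Among the paired cells, members thus held the higher sum in run 1 for natural killer and myeloid markers and in run 3 for B cell markers. For B cell markers the order differed from that over all cells in runs 2 and 3. The part of such cells in the lower calls was not tested. Genes with at least 50 CPM in the higher group were ranked by their negative differences with the same sign in every run. The 10 largest were Jchain (-5.62), Tyrobp (-3.48), Hbb-bt (-3.17), Ccl5 (-3.11), Igkc (-3.10), Ifitm1 (-3.08), S100a4 (-2.88), S100a6 (-2.60), Cd52 (-1.71) and Capg (-1.65). These are genes of plasma cells, natural killer and myeloid cells, red cells and mature lymphocytes. A single resting cell of run 2 held 1993 of the 2101 Jchain UMIs of all resting cells of that run, and 1 held 8447 of their 8965 Igkc UMIs. Both folds came from run 2: the paired cells held 0 against 1 Jchain UMIs in run 1 and 12 against 13 in run 3, and 0 against 1 and 303 against 357 Igkc UMIs. Without run 2 Igkc stood at -0.31 and Jchain did not pass the filter on low counts. The 15 natural killer and innate lymphoid markers summed to 217, 360 and 293 CPM over all members, with Nkg7 the most abundant, against 365, 902 and 956 CPM over all resting cells, and 5 of the 6 tested were lower. Myeloid and dendritic markers summed to 199, 300 and 310 against 239, 382 and 796 CPM, with Csf1r at 0 in members of runs 1 and 3 and Siglech at 0 in all runs. B cell markers summed to 291, 487 and 261 against 398, 349 and 724 CPM, with Ighm the most abundant in members, and the 487 CPM of run 2 rested in large part on 1 member that held 1934 of the 3368 Ighm UMIs. Regulatory T cell markers summed to 160, 153 and 236 against 247, 252 and 451 CPM, mostly Ikzf2, and Foxp3 was at 0 in every member. Erythroid markers summed to 4.29, 48.2 and 44.8 against 1.91, 133 and 181 CPM, led by Hbb-bt. Stromal and epithelial markers summed to 76.7, 94.6 and 117 against 159, 131 and 148 CPM, led by Pecam1, with Krt5, Krt8, Col1a1, Col1a2 and Pdgfra at 0 in members of every run. With reference cells freed of Cd8a, Cd8b1, Cd34 and Trac UMIs, 263 genes were lower in place of 514, and Lyl1 (-1.78) and Kit (-0.69) still passed the test, while Mef2c (-0.59) did not.

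Of 14 γδ genes, 12 were tested and 4 were lower, Blk, Etv5, Maf and Tcrg-C1. Only 1 of the 12 was lower without run 2, and only 1 in DESeq2. Of 11 immediate early genes, which respond within minutes to stimulation or to cell handling, 5 were lower, and 1 of 10 with the stricter reference. DESeq2 called none of the 11 lower. Of 18 cytokine receptor and signalling genes, 5 were lower, among them Il2rb (-2.15), Il7r and Kit. Without run 2, 1 of the 18 was lower, and in DESeq2 3 were. Of 12 Bcl2 family genes, 2 were lower. Of 9 p53 target genes, 2 were lower, Aen and Sesn1, and Cdkn1a is given above.

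The members were then set against the cycling Il2ra+ cells that carried Ptcra (215, 372 and 427 cells) and met the other exclusions. A member without a Ptcra UMI may have carried Ptcra transcripts that were not detected. Paired on depth within each run, 182, 368 and 421 pairs were summed and fitted in the same way across 9632 genes. Of these, 495 (5.14%) were higher and 325 (3.37%) lower in members, 8.51% in either direction, with a median log2 fold change of -0.01. Ptcra chose the groups, so genes that follow Ptcra in development were bound to differ to some extent, and Ptcra itself is given as a description, at 0 in members and 273, 266 and 166 CPM in the paired cells. The same Mki67 and Top2a threshold chose both groups, so like levels of cycle genes were largely set by the rule. The median log2 fold change was -0.03 over 61 replication genes, 0.04 over 97 mitosis genes and -0.02 over 13 histone genes. Cdk1, for example, was at 233 against 200, 259 against 248 and 124 against 111 CPM. Equal transcript levels do not show that the groups cycled at the same rate.

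Progenitor and DN2 genes were higher in the Ptcra-negative cells. Of 11 progenitor genes, 10 were higher, with a median of 0.81, and of 8 DN2 and mast cell-type genes all 8 were higher, with a median of 1.12. The latter list holds Tyrobp and Fcer1g, which are also on the myeloid list, where 7 of 8 genes were higher. Cpa3 was at 123 against 27.9 CPM in run 1, 319 against 77.1 in run 2 and 230 against 62.6 in run 3 (log2 fold change 1.95, SE 0.07, edgeR adjusted p = 6e-21). Lyl1 was at 14.4 against 3.10, 24.7 against 5.26 and 16 against 3.16 CPM (2.25, SE 0.20, edgeR adjusted p = 3.7e-10). Every run of the members lay above every run of the Ptcra+ cells for both genes, and both held in all alternatives that were fitted except the fit without the run block.

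Other members of these lists differed less or less evenly. Igfbp4, a binding protein for insulin-like growth factors, was at 41.8 against 19.2, 105 against 31.8 and 51.1 against 15.0 CPM (1.65, SE 0.10). Hhex was higher by 1.45, Spi1 by 1.08, Cd44 by 1.18, Mef2c by 0.86, Plac8 by 0.84, Erg by 0.81, Runx2 by 0.80, Mycn by 0.78, Kit by 0.61, Tespa1 by 0.60 and Il7r by 0.43. Ly6a was higher by 0.45 with run 1 against the other runs, and Spi1 also had runs that disagreed, at 3.75 against 4.34 CPM in run 1, 14.6 against 5.01 in run 2 and 11.8 against 5.80 in run 3. Without run 3, 4 of the 11 progenitor genes were higher, and in DESeq2 1 was. Kit was at 11.9 against 6.20, 21.9 against 11 and 31.5 against 22.5 CPM, and its call was lost in DESeq2 (0.73), after thinning (0.70) and when cells with Cd79a, Cd79b or Lyz2 UMIs were left out (0.53).

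Outside the replication, mitosis and histone lists, genes with at least 50 CPM in the higher group were ranked by positive differences held in every run. After Igkc, Cpa3 and Igfbp4, the largest were the protease inhibitor-like gene Ctla2a (89.9 against 44.6, 333 against 136 and 368 against 148 CPM, log2 fold change 1.25, SE 0.06), the intermediate filament gene Vim (1.16), Klf2, a factor of resting and migrating T cells (1.05), Serpinb1a (1.04), Gpr171 (0.97), Dap (0.95) and Cd52 (0.90). Igkc (2.70) rested on 1 cell: a single member of run 2 held 4375 of the 4740 Igkc UMIs, 898 of the 957 Jchain UMIs and 1934 of the 3368 Ighm UMIs of the members of that run. Without run 2 Igkc stood at 0.27. The other 9 genes do not encode immunoglobulins. Being higher in all 3 runs was a condition of this ranking and is no added support for them.

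Genes of recombination and of the CD3 complex were lower. Of 20 tested DN2b to DN3 genes, 12 were lower and none higher, with a median of -0.22. Rag1, which cuts receptor genes, was at 15.6 against 52.1 CPM in run 1, 9.31 against 56.4 in run 2 and 17.3 against 110 in run 3 (log2 fold change -2.57, SE 0.11, edgeR adjusted p = 5e-18), and Rag2 was lower by -0.80. Cd3d was at 384 against 633, 184 against 642 and 255 against 683 CPM (-1.38, SE 0.09). The CD3 chains did not move equally, since Cd3g (-0.57, SE 0.03) and Cd3e (-0.57, SE 0.04) were closer to 0 than Cd3d in each run, a difference between genes that was not tested. The kinases Lck (-0.27) and Zap70 (-0.45), Themis (-0.29) and the adaptor Lat (-0.18) were lower by small amounts.

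Of 9 tested Notch pathway genes, 3 were lower and none higher: Notch3 was at 15.0 against 31.6, 15.9 against 27.1 and 18.0 against 39.0 CPM (-1.04, SE 0.12), its relative Notch1 was lower by -0.47, and the Notch target Dtx1 was at 8.74 against 27.9, 3.02 against 12.3 and 6.22 against 23.2 CPM (-1.90, SE 0.18). These 3 calls were also made by DESeq2 and without any 1 run. Among 19 commitment factors, 4 were higher, including Gata3 (0.30), Runx3 (0.82) and Ikzf1 (0.28), and 5 were lower, including Lef1 (-0.60), Ets2 (-1.13) and Spib (-1.46). Bcl11b (-0.07, edgeR adjusted p = 0.44) and Tcf7 (-0.03, edgeR adjusted p = 0.81) did not pass the test, and both were abundant in each group. Among genes with at least 50 CPM in the higher group, the remaining ones with the largest negative differences held in every run were Pld4 (-1.67), the antisense gene Dgkeos (-1.22), Arl5c (-1.13), Hdac4 (-1.04), Ldhb (-0.90), Hivep3 (-0.84), Hsdl1 (-0.81) and Sh2d1a (-0.77). Whether reads of Dgkeos were told apart from its overlapping partner by strand is not given in the sources used here.

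**Figure D4:**
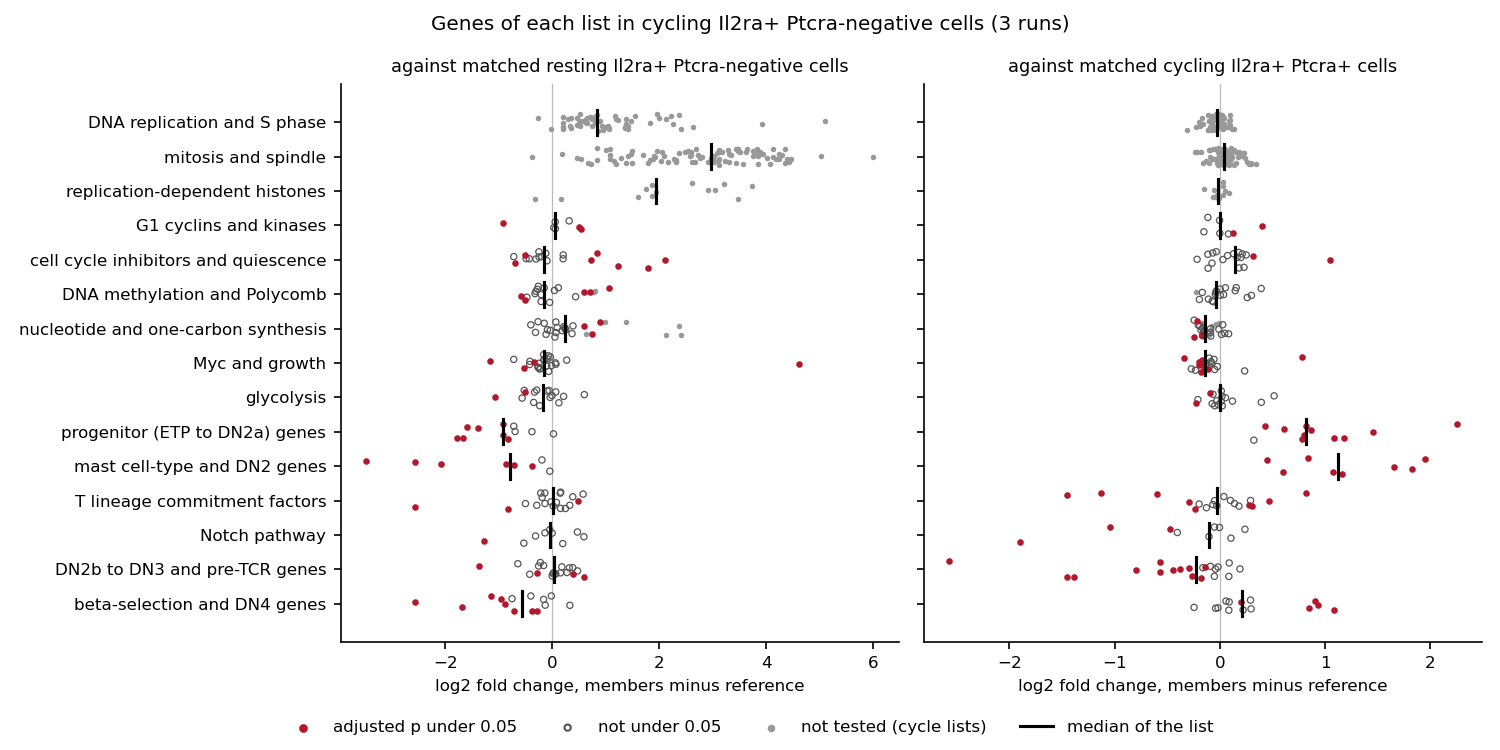
Log2 fold change of each gene (points) of 15 lists in members against depth-matched resting cells (left) and against depth-matched cycling Ptcra+ cells (right), with red for an edgeR adjusted p under 0.05, open for the rest, grey for the cycle genes that were not tested, and a bar at each list's median. The mitosis list has a median of 2.97 on the left and 0.04 on the right, and the progenitor list one of -0.91 on the left and 0.81 on the right.

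Of 18 cytokine receptor and signalling genes, 7 were higher and none lower, among them Il4ra (1.47), the feedback inhibitor Socs2 (0.95), Stat3 (0.57) and the kinase gene Pim1 (0.52). Of 10 Bcl2 family genes, 2 were higher, the survival genes Bcl2 at 195 against 136, 217 against 134 and 233 against 161 CPM (0.56, SE 0.06) and Bcl2l1 (0.49). Ccnd3 was higher, at 439 against 361, 434 against 312 and 312 against 226 CPM (0.40, SE 0.05). Of 10 immediate early genes, 9 were higher, among them Nr4a1 (1.09), Zfp36 (0.98), Egr1 (0.85), Ier2 (0.67) and Fos (0.55). Fos differed far more between runs than between groups, at 17.5 CPM in members of run 1, 332 in run 2 and 177 in run 3, and 3 of the list's genes were higher without run 3.

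Growth genes moved the other way by small amounts. Of 24 Myc and growth genes, 10 were lower and 1 higher, with a median of -0.14: Myc was at 114 against 150, 92.8 against 116 and 49.4 against 59.3 CPM (-0.34, SE 0.07), while Mycn was the gene that was higher. None of the 24 passed the test when cells with 3 or more Nkg7 UMIs were left out, and in DESeq2 1 did. Ribosomal protein genes were lower in 36 of 81 (median -0.06), and 3 were lower in DESeq2. Of 27 nucleotide genes, 22 oxidase and synthase genes and 18 cholesterol genes, 3 each were lower and none higher. Among 16 glycolytic genes, 2 were lower. Of 18 inhibitors, 2 were higher, Klf2 and Cdkn2d.

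Transcripts of γδ and of other cell types were higher in members as well. Of 12 γδ genes, 6 were higher and 1 lower. The constant region gene Tcrg-C1 was at 871 against 526, 1514 against 917 and 600 against 404 CPM (0.65, SE 0.04), Tcrg-C2 was higher by 0.39, and the γδ factors Sox13 (0.50), Etv5 (1.44) and Maf (1.15) were higher at under 25 CPM, Maf in 2 of the 3 runs. Nkg7 was higher by 0.70. Of 8 myeloid and dendritic markers, 7 were higher, among them Tyrobp (1.83), Cd74 (1.68) and Fcer1g (1.16), and the 15 markers of that list summed to 184, 321 and 330 CPM in paired members against 169, 228 and 214. Of 3 B cell markers, Ighm was higher (0.95), and Cd79a had 0, 8 and 288 UMIs in all members of runs 1, 2 and 3, the last in 53 cells. Hbb-bt was at 4.99 against 0, 37.2 against 2.76 and 23.7 against 2.77 CPM (3.36). Over all members its UMIs lay in 3, 36 and 53 cells, and 1 member of run 2 held 139 of the 304 of that run. With no UMI in the Ptcra+ cells of run 1, the size of this fold is loosely bounded. Of 14 beta-selection genes, 5 were higher, among them Cd5 (0.93). The sorting gate barred B220, NK1.1, CD11b and CD11c, and how far cells of other types added to the higher calls was not tested. Without cells with Cd79a, Cd79b or Lyz2 UMIs 261 genes were higher in place of 495, and Cpa3, Lyl1, Igfbp4, Rag1 and Cd3d kept their calls.

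Within the members, Cpa3 divided cells of unlike stage content. It was detected in 111 of 258 members in run 1, 564 of 725 in run 2 and 593 of 791 in run 3. The median depth was 7149 UMIs in cells with Cpa3 against 8134 without, 10086.5 against 9891 and 17253 against 17357. Since measured Cpa3 chose the groups, the values are descriptions. Lyl1 was at 36.6 CPM in members with a Cpa3 UMI and 2.35 without in run 1, 29.5 and 5.98 in run 2, and 20.4 and 6.36 in run 3. Hhex was at 11 and 0.782, 20.1 and 7.78, and 15.9 and 2.60 CPM, the lowest of these from 1 UMI. The surface gene Plac8 was at 2148 and 862, 2730 and 1645, and 1657 and 757 CPM. These 3 genes were higher in the cells with Cpa3 in every run, as were Kit and Igfbp4, but Cd7 was lower with Cpa3 in run 1 (4.88 and 19.6 CPM) and run 3 (6.11 and 12.1 CPM).

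Lef1, a factor of committed cells, followed the opposite order, at 39.0 and 217 CPM in run 1, 14.9 and 40.7 in run 2, and 27.5 and 175 in run 3. Cd3d was at 160 and 483, 133 and 318, and 165 and 443 CPM. The Notch target Dtx1 was at 2.44 and 13.3, 1.37 and 7.18, and 2.76 and 13.6 CPM. These 3 genes were lower in cells with Cpa3 in all 3 runs, and the gap in Lef1 was narrowest in run 2, the sort without DN3 cells. Bcl11b was at 511 and 353, 353 and 344, and 588 and 467 CPM, and Gata3 at 139 and 139, 141 and 137, and 103 and 87.9 CPM, so that Bcl11b was on the higher side with Cpa3 in each run and Gata3 was at a like level. Cd3e was also lower with Cpa3 in each run, at 286 and 425, 495 and 695, and 307 and 391 CPM, as were Rag1, Tcf7 and Cd28. Dntt, Cd3g and Notch3 did not share this order. Dntt was higher with Cpa3, at 1315 and 964, 1531 and 1366, and 1323 and 997 CPM. Cd3g was at 1689 and 1479, 1876 and 2486, and 1447 and 1380 CPM, and Notch3 at 21.9 and 12.5, 13.3 and 13.2, and 17.6 and 17.3 CPM. The summed DN2 and mast cell-type list and the DN2b to DN3 list, taken per cell, had a Spearman rho of -0.01, -0.34 and -0.11 across the 258, 725 and 791 members, which share their library and depth.

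**Figure D5:**
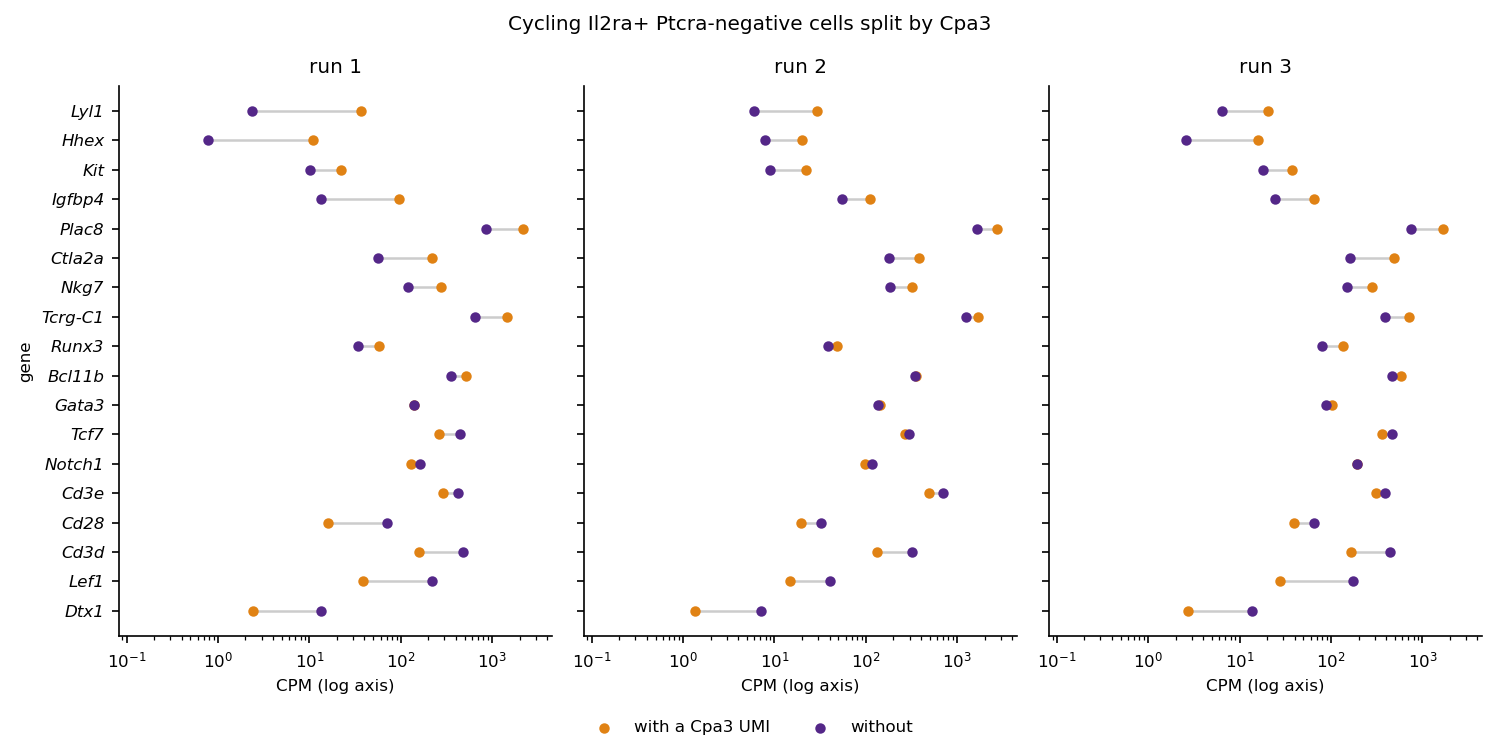
CPM (log axis) of 18 genes summed over members with a Cpa3 UMI (orange) and without (violet) in each run. Lyl1, Hhex and Plac8 are higher with Cpa3 in all runs (Lyl1 at 36.6 against 2.35 CPM in run 1), and Cd28, Cd3d, Lef1 and Dtx1 are higher without.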

How the data were processed

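The authors counted UMIs per gene and cell with Cell Ranger on mm10 (the header of the third library names version 4.0.0, and the methods name that and an older version without saying which library used which), and deposited them as raw counts. They listed 28692 genes in runs 1 and 2 and 32285 in run 3, and 27734 shared gene IDs were used. Members, gene lists and comparisons were chosen with earlier results of these data known. Members and reference cells were paired at random within a run if their log10 UMI counts differed by at most 0.05. Sums were tested with edgeR 4.0.16 (TMM, filterByExpr, quasi-likelihood, run as block, 2 residual degrees of freedom), with DESeq2 1.42.0 as an alternative. Nothing says that the runs came from separate mice beyond the pools, so p-values speak only for these runs. The fit drew each gene's spread toward that of all genes. The prior degrees of freedom were 12.5 against resting cells and 29.2 against cycling Ptcra+ cells. Small p-values thus rest largely on spread shared across genes, and only in part on how a gene varied between runs. On simulated counts of the resting comparison (9462 genes), edgeR recovered 76 of 100 genes changed 2-fold and 97 of 100 changed 4-fold, with 5 false calls among 178. DESeq2 recovered 45 and 89, with 0 false calls among 134. The simulated folds were the same in every run, whereas some measured genes changed direction between runs. The simulation therefore does not give the rate of false calls in the measured data. Genes named outside the lists were the 10 largest changes each way with the same direction in every run and at least 50 CPM in the higher group, and 1 of them is not reported here. Scrublet-marked cells were removed only in an alternative. Pairing by run comes from the shared library: cells of both groups in a run were captured together, so the run is a block by design. Promoters are from RefSeq on GRCm38.p6, and exons and whole-gene coordinates from GENCODE vM21 on GRCm38.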

Additional observations from a re-analysis of the deposited data

Results flagged for a closer look

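In run 3, 210 cells met every other part of the rule but lay outside the gene or mitochondrial limits: 136 had more than 5000 genes and 74 exceeded 7% mitochondrial counts, and their median depth was 27088.5 UMIs. Only 1 such cell was found in run 1 and 0 in run 2, and none entered the comparisons.

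Several genes moved one way in run 1 and the other way in runs 2 and 3, and the difference between runs was not tested. In members against resting cells the log2 ratio was 0.39 in run 1 against -1.28 and -0.82 for Kit, 0.11 against -0.89 and -1.02 for Il7r, 0.17 against -1.26 and -0.38 for Igfbp4, 0.53 against -2.55 and -3.44 for Cd7, and 0.29 against -0.50 and -1.47 for Ly6a. Cd44 was at 4.92 against 2.50 CPM in run 1 and lower in members of runs 2 and 3. Mthfd2 was at -0.06 in run 1 against 0.77 and 1.09. In members against cycling Ptcra+ cells it was -0.21 in run 1 against 1.54 and 1.02 for Spi1, -0.19 against 0.50 and 0.55 for Ly6a, -0.02 against 2.01 and 0.56 for Ighm, -0.69 against 0.44 and 1.26 for Egr1, and -0.23 against 0.66 and 0.61 for Bcl2l1. Run 1 had the fewest pairs and the lowest depth in both comparisons.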

How the results depend on the processing

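Counts of calls and the calls of named genes both depended on the settings, while few named genes changed sign. Against resting cells, 20 named genes lost their call in DESeq2 (43 unchanged), 19 without run 2 (43 unchanged) and 59 without the replicate block (5 unchanged). Against cycling Ptcra+ cells, 33 lost it in DESeq2 (44 unchanged), 25 without run 3 (48 unchanged) and 75 without the replicate block (2 unchanged). Against resting cells (628 higher, 514 lower), DESeq2 called 374 and 103, a fit without the replicate block 29 and 1, all cells without matching 1812 and 1701, and thinning in place of matching 1131 and 1109. Leaving out a run gave 387 to 784 higher and 118 to 503 lower, with the lowest counts without run 2. Added after seeing the data, leaving out cells with 3 or more Nkg7 UMIs gave 414 and 234, leaving out cells with Cd79a, Cd79b or Lyz2 UMIs 291 lower, and holding the reference to the members' exclusions 263 lower. Against cycling Ptcra+ cells (495 higher, 325 lower), the corresponding counts were 119 and 71 in DESeq2, 0 and 1 without the replicate block (72 higher at an unadjusted p under 0.05 in edgeR), 754 and 611 without matching, 165 and 130 thinned, 144 to 647 and 92 to 425 without a run, the lowest without run 3, 313 and 193 without Nkg7+ cells, and 261 and 137 without Cd79a, Cd79b or Lyz2. Fewer cells or genes entered several of these fits, and beyond that the cause was not tested. Applied after thinning, the rule was met by 55, 102 and 240 cells.

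Signs changed against resting cells for Cpa3 (0.0309 in DESeq2, -0.258 to 0.271 without a run, positive without run 2, 0.0759 without Cd79a, Cd79b or Lyz2, 0.0333 in another matching order), and, unmatched and thinned, for Dntt (-0.0906, -0.15), Cd3g (-0.0185, -0.0395), Npm1 (0.28, 0.21) and Bcl11b (-0.25, -0.27), and for Igkc without Cd79a, Cd79b or Lyz2 (0.0385). Against cycling Ptcra+ cells they changed for Igkc at 5 cycling UMIs (-0.15) and for Tcf7 (-0.0464 to 0.023 without a run, positive without run 3, 0.0036 without Cd79a, Cd79b or Lyz2, 0.10 without Nkg7+ cells). No other gene put through these fits changed sign. Leaving out cells with any Trdc, Cd79a, Cd79b, Lyz2, Nkg7 or Foxp3 UMI was not run, since fewer than 20 pairs per run remained.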
